A study of Mus musculus with 14 samples.

Results

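The genes that changed when ATP-citrate lyase (ACLY) was lost from mouse hepatocellular carcinoma cells that still carried ACSS2 were measured by RNA-seq. The 8 libraries were 4 of WT cells and 4 of ACLY KO cells, out of 14 libraries in the series. The other 6 libraries (3 of ACSS2 KO and 3 of DKO1, which lacks ACLY and ACSS2) entered here only where loss of ACLY was set beside the same loss in cells edited at Acss2. Of 24972 gene symbols in the table, 12586 had a mean of at least 10 normalized counts over the 8 libraries and were tested, and 6399 were listed at 0 in all 8.

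All cells came from an Acly f/f line made from a diethylnitrosamine-induced liver tumor. ACLY KO cells had received adenoviral Cre and were grown from a single cell, so genotype and clone cannot be told apart in this design. WT and ACLY KO cells both carried the empty LentiCRISPR v2 vector with no guide RNA, were selected with puromycin and were used as bulk populations. The cells were kept for 24 hours in DMEM with 10% calf serum before RNA was extracted. The methods state that the experiment was not independently repeated, so p-values here measure the spread between these libraries, which may be technical.

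ACLY splits the citrate that leaves mitochondria into oxaloacetate and acetyl-CoA in the cytosol, and so joins the breakdown of glucose to fatty acid and sterol synthesis and to histone acetylation. ACSS2 makes acetyl-CoA from acetate in the same compartments and is a known target of the sterol-regulated transcription factor SREBP-2. Acetyl-CoA can also be shuttled out of mitochondria as acetylcarnitine by carnitine acetyltransferase, encoded by Crat. In normal liver ACLY feeds lipid synthesis after a meal.

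Acly RNA separated the groups. Acly (chromosome 11 of GRCm38, 100476352 to 100528000 in RefSeq) had 6052, 5461, 6435 and 6252 normalized counts in the WT libraries and 1084, 971, 984 and 965 in the ACLY KO libraries. Every ACLY KO library lay below every WT library, and the log2 fold change was -2.59 ± 0.07 (log2 scale ± SE, as in the brackets that follow; adjusted p = 1.16e-08 by limma). The fall stopped short of 0: ACLY KO held 0.291 of the mean of Acly over the 14 libraries. The values are per gene, so reads from the deleted part could not be separated from the rest. Such a remainder was common in this table. Of 8781 genes with a mean of at least 300 over the 14 libraries, 8 had any library under 0.17 of that mean and none had an ACLY KO library under it. Of the 5439 genes whose mean was 1000 or more, Acly was the 15th lowest in ACLY KO by this share, and the lowest, Cyba, was at 0.213. The size of a large fall was thus limited in these values, and the cause of the limit was not tested.

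The gene of the other cytosolic enzyme moved the opposite way. Acss2 (chromosome 2, 155518043 to 155562743) had 239, 252, 233 and 224 normalized counts in the WT libraries and 787, 660.4, 739 and 685 in the ACLY KO libraries. The groups did not overlap and the log2 fold change was 1.59 ± 0.07 (adjusted p = 1.57e-07). Crat did not pass the test, at 1139.6 ± 105 to 1242 ± 49.1 normalized counts (mean ± SD, n = 4 each, as for every such pair of values) with a log2 fold change of 0.13 ± 0.07 (adjusted p = 0.168). Ep300, which encodes the histone acetyltransferase p300, did not pass either (0.29 ± 0.21, adjusted p = 0.264). Cpt1a, the gene of the enzyme that loads fatty acids onto carnitine for mitochondria, fell from 2648 ± 349 to 1939.7 ± 117 normalized counts, a log2 fold change of -0.44 ± 0.10 (adjusted p = 0.00343).

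**Figure D1:**
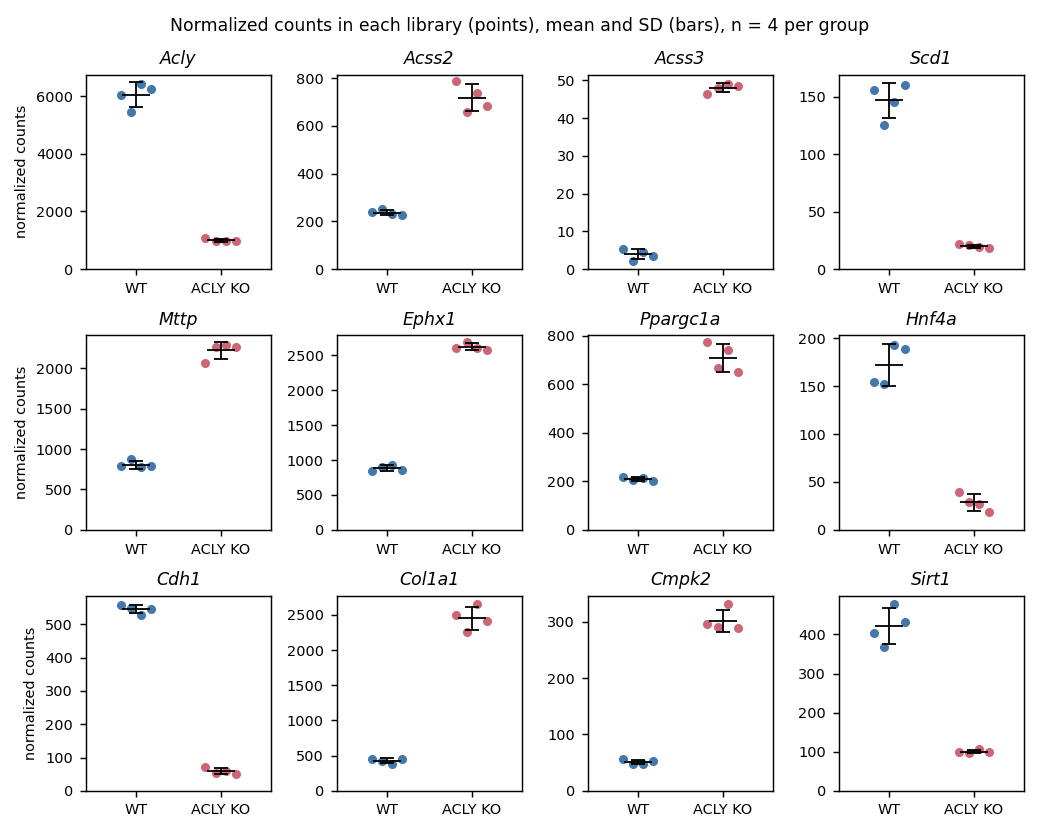
Normalized counts (vertical axis, starting at 0 and scaled separately for each gene) of 12 genes in the 4 WT and 4 ACLY KO libraries. Points are libraries and bars are the mean and SD; in each of the 12 genes the groups do not overlap, with Acly between 965 and 1084 in ACLY KO and Acss2 between 660 and 787.

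The normalized counts of a library added up to 25507569 to 26663144 in WT and to 23859170 to 23954781 in ACLY KO (exact two-sided permutation test over 70 assignments, p = 0.0286, the smallest p that 4 against 4 allows). WT replicate 2 and ACLY KO replicate 4 deviated from their groups with transcript length (Spearman's rho across genes -0.589 and -0.574), while the other 6 libraries were between 0.0363 and 0.529. Markers of blood and immune cells were low in part: those of T, B and NK cells summed to at most 21.6 normalized counts in any library and those of erythroid cells to at most 10.5, and of 7 macrophage markers Clec4f and Marco were listed at 0 in all 8 and Adgre1 and Lyz2 were at 1.71 or less. Csf1r, the receptor of the macrophage growth factor, was at 1054 to 1255, Cd14 at 167 to 327 and Cd68 at 35.3 to 88 normalized counts. The hepatocyte label rested on keratins: Alb held 30.7, 27.7, 36.9 and 30.3 normalized counts in the WT libraries and 22.5, 25.4, 24.8 and 20.8 in the ACLY KO libraries, Apoa1 was at 1.31 or less in every library and Ahsg at 0, while the bile duct keratin genes Krt7 and Krt19 went from 13364 ± 1959 to 3993 ± 146 normalized counts and from 11015 ± 2728 to 4569 ± 179 normalized counts. Albumin, apolipoprotein A-I and fetuin-A, the secreted proteins that define hepatocytes, were thus near absent in both groups. The hepatocyte markers, keratins included, summed to between 48126 and 65023 in WT and between 34630 and 37794 in ACLY KO, with 4 of 5 tested lower. Those of cholangiocytes summed to between 37905 and 49932 and between 31835 and 33788, with 1 of 6 higher and 4 lower, and those of macrophages to between 1402 and 1517 and between 1334 and 1410, with 1 of 3 lower.

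Of all tested genes, 57% differed between ACLY KO and WT, most of them by small amounts. At an adjusted p under 0.05, 3560 genes (28.3%) were higher in ACLY KO and 3619 (28.8%) were lower. These shares are the background of every list count below, and a count near them is not read as a result about its list. The limits of the study, an absolute log2 fold change over 1.5 with an adjusted p under 0.01, were passed by 588 genes upward (4.67%) and 521 downward (4.14%). No group overlapped the other in any of these 1109 genes, and of all tested genes 26.1% had every ACLY KO library above every WT library and 27.2% the reverse. The median log2 fold change of all tested genes was -0.01. Weakly expressed genes made up much of the 1109: with a mean of at least 50 required, 293 rose and 300 fell past the limits. With equal library totals, the counts at an adjusted p under 0.05 were 4552 and 2721 and the median of all genes was 0.105.

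The largest falls, where the mean was 100 or more, were of the vacuolar ATPase subunit gene Atp6v0e2, of Gja1, of Nes and of Slc16a3. Atp6v0e2 held 323, 300.4, 255 and 278 normalized counts in the WT libraries and 21, 17.7, 17 and 17.2 in the ACLY KO libraries, a log2 fold change of -3.92 ± 0.12 (adjusted p = 2.09e-08). Gja1, the gene of the gap junction protein connexin 43, held 697, 584, 720.5 and 740.3 normalized counts in the WT libraries and 49.2, 56.8, 64.5 and 49 in the ACLY KO libraries (-3.62 ± 0.11). Nes encodes the intermediate filament protein nestin and went from 5996 ± 262 to 501 ± 32.9 normalized counts (-3.58 ± 0.06). Slc16a3 encodes MCT4, a transporter that exports lactate, and had 1628, 1577, 1562 and 1766 normalized counts in the WT libraries and 152, 138, 123 and 137 in the ACLY KO libraries (-3.56 ± 0.08, adjusted p = 1.07e-08). The other 8 of the 12 largest falls were Itpripl2, Mal, Sox11, Igfbp3, Tnfrsf23, Nexn, Upk1b and Gng10, with log2 fold changes between -3.54 and -3.29. Not all of these falls had the same size in cells edited at Acss2, DKO1 against ACSS2 KO, given below. That log2 fold change minus the ACLY KO one was 3.929 for Gja1, 3.267 for Itpripl2 and 3.046 for Atp6v0e2. The 12 were chosen for large falls in ACLY KO, which enter that difference with the opposite sign. Their levels in ACSS2 KO are not given here. In the ACLY KO libraries the 12 genes were at between 0.189 and 0.244 of their 14-library means. The limit described with Acly was for means of at least 300, which not all of the 12 reach. The share also depends on the levels in the other knockouts, and whether these falls were limited was not tested.

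Among the rises, Epha7, an ephrin receptor, held 809, 692, 694 and 732 normalized counts in the WT libraries and 6160.1, 6016, 6064 and 5213 in the ACLY KO libraries, a log2 fold change of 3.00 ± 0.07 (adjusted p = 1.16e-08). Csn3, the gene of the milk protein kappa-casein, had 95.9, 79.9, 107 and 84 normalized counts in the WT libraries and 772, 939, 1018 and 957 in the ACLY KO libraries (3.32 ± 0.12). Adh7, an alcohol and retinol dehydrogenase, rose from 48.5 ± 17.1 to 476 ± 40.1 normalized counts (3.33 ± 0.21) and the cell adhesion gene Nrcam from 18.7 ± 4.82 to 198 ± 12.8 normalized counts (3.37 ± 0.19). Malrd1 had the largest rise of the 12, from 39.5 ± 6.53 to 463 ± 78.4 normalized counts (3.52 ± 0.16). The others were Espnl, the zinc finger genes Zfp979 and Zfp345, the calcium channel gene Cacna1i, Ptprt, and the germ cell genes Tdrd9 and Rhox5, with log2 fold changes between 3.01 and 3.17. Zinc finger genes of this kind have close copies in the genome, and how reads were shared among copies is not given in the sources used here.

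For genes that supply acetyl-CoA, of 24 members tested, 13 were higher and 4 lower, with a median log2 fold change of 0.27 beside -0.01 over all genes. Acss3, the gene of a mitochondrial short-chain acyl-CoA synthetase, had 5.4, 2.21, 4.54 and 3.54 normalized counts in the WT libraries and 46.5, 48.1, 49.2 and 48.5 in the ACLY KO libraries. Every ACLY KO library was above every WT library, and the log2 fold change was 3.36 ± 0.25 (adjusted p = 2.79e-06). Pdp1, a phosphatase that activates pyruvate dehydrogenase, rose from 474 ± 13.5 to 765 ± 41.6 normalized counts (0.69 ± 0.06). Slc25a1, the mitochondrial citrate carrier, fell by less, from 873 ± 43.5 to 756 ± 55.5 normalized counts (-0.21 ± 0.07, adjusted p = 0.0264). With the replicate number as a block, 2 members of this list were lower.

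Genes of de novo lipogenesis, the pathway that uses ACLY's product, mostly did not pass the test. On this list, of 14 members tested, 4 were higher (28.6%, beside 28.3% of all genes) and 0 lower, with a median of 0.06. By limma, 0 were lower also at an unadjusted p under 0.05 and with robust variances. Fasn, fatty acid synthase, had 17220, 10292, 18108 and 18483 normalized counts in the WT libraries and 22055, 19057, 22827 and 17515 in the ACLY KO libraries, and the groups overlapped (0.38 ± 0.18, adjusted p = 0.103). Acaca, which encodes the cytosolic acetyl-CoA carboxylase, did not pass the test (0.23 ± 0.17, adjusted p = 0.28). Acacb, the gene of the carboxylase at the mitochondrial surface, rose from 17.9 ± 2.82 to 55.8 ± 5.29 normalized counts (1.59 ± 0.16, adjusted p = 2.14e-05). Insig1, which retains the SREBP complex in the endoplasmic reticulum, rose from 3922 ± 97.2 to 4696 ± 405 normalized counts (0.26 ± 0.06).

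Of the 6 tested desaturase genes of the Scd and Fads families, 5 were lower, beside 28.8% of all tested genes. Scd4 did not pass (0.27 ± 0.26, adjusted p = 0.395). For elongation and desaturation, of 16 members tested, 4 were higher and 9 lower, with a median of -0.28. Scd1, a stearoyl-CoA desaturase that makes monounsaturated fatty acids, had 156, 126, 145 and 160.4 normalized counts in the WT libraries and 21.4, 20.8, 18.9 and 18.3 in the ACLY KO libraries. Its log2 fold change was -2.82 ± 0.12 (adjusted p = 1.09e-07). Scd2, the isoform of the same family, went from 30150 ± 1859.8 to 25226 ± 2266 normalized counts (-0.26 ± 0.08, adjusted p = 0.0162), and that call was lost without ACLY KO replicate 2 (log2 fold change -0.22). Fads1, which acts on polyunsaturated fatty acids, and Fads3, of the same family, fell with log2 fold changes of -0.38 ± 0.07 and -0.37 ± 0.04. These desaturase genes lie on chromosome 19, where the median of all tested genes was -0.37 and 60.5% were called lower. Elovl6, which extends palmitate to stearate and lies on chromosome 3, rose from 3404 ± 400.3 to 5560.5 ± 527 normalized counts (0.71 ± 0.10, adjusted p = 1.81e-04). Parts of chromosome 3 had raised medians, given below.

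Cholesterol genes did not move as a block. Of 24 members tested, 9 were higher and 7 lower, 4 of them without ACLY KO replicate 2, and the median was 0.04. Hmgcs1 did not pass (-0.14 ± 0.06, adjusted p = 0.0563). Mvd rose (0.80 ± 0.08) and Idi1, on chromosome 13, fell (-0.45 ± 0.06). In sterol and bile acid transport, of 10 members tested, 5 were higher and 3 lower: Scarb1, the HDL receptor, fell from 1004 ± 57.7 to 206 ± 19 normalized counts (-2.28 ± 0.08) and Soat1, which esterifies cholesterol, from 146 ± 11.8 to 22.9 ± 5.21 normalized counts (-2.64 ± 0.17). Abcb11, the bile salt export pump, rose from 19.1 ± 2.05 to 47.9 ± 7.77 normalized counts (1.28 ± 0.16).

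Genes that break down fatty acids were higher more often than lower. For mitochondrial oxidation and ketone bodies, of 29 members tested, 15 were higher and 8 lower, with a median of 0.26, and for peroxisomal oxidation and peroxins, of 33 members tested, 17 were higher and 2 lower, with a median of 0.20. Acadvl and Acadm, dehydrogenases for very long and medium chains, rose with log2 fold changes of 0.85 ± 0.07 and 0.59 ± 0.09. Oxct1, which lets cells burn ketone bodies, rose from 4166 ± 159.7 to 6553 ± 272 normalized counts (0.65 ± 0.05). Acsf2, an acyl-CoA synthetase, fell from 184 ± 24.7 to 33.3 ± 1.72 normalized counts (-2.42 ± 0.12). In peroxisomes, Abcd3, a transporter of long fatty acids, had 2981, 2661, 3084 and 2955 normalized counts in the WT libraries and 6397, 6298, 6643 and 5879 in the ACLY KO libraries (1.11 ± 0.06, adjusted p = 5.38e-07), Phyh rose from 414 ± 37.1 to 829 ± 22.2 normalized counts and Amacr from 274 ± 20 to 549.7 ± 34.3 normalized counts.

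Targets of the fatty acid receptor PPARα did not share a direction. On that list, of 13 members tested, 5 were higher and 2 lower, with Ppara itself at 23.6 ± 6.34 to 19.3 ± 3.49 normalized counts (adjusted p = 0.406). Angptl4, an inhibitor of lipoprotein lipase, fell from 397 ± 28.8 to 79.3 ± 15.8 normalized counts (-2.33 ± 0.14), while Cyp4a12a rose from 29.1 ± 15.4 to 124 ± 11.5 normalized counts (2.18 ± 0.29). For uptake and activation genes, of 9 members tested, 6 were higher and 2 lower; Fabp5, a fatty acid carrier, had 1163, 1256, 1192 and 1193 normalized counts in the WT libraries and 571, 553, 592 and 623 in the ACLY KO libraries (-1.04 ± 0.06). In triglyceride synthesis and lipid droplets, of 22 members tested, 8 were higher and 7 lower. Mttp, which loads lipid onto apolipoprotein B, had 786, 878, 775 and 786 normalized counts in the WT libraries and 2063, 2264, 2292 and 2264 in the ACLY KO libraries (1.46 ± 0.06, adjusted p = 8.82e-08). Mgll, monoacylglycerol lipase, rose from 29.2 ± 2.47 to 113 ± 8.42 normalized counts (1.91 ± 0.11) and the droplet coat gene Plin4 from 117 ± 20 to 376 ± 31.3 normalized counts (1.69 ± 0.12). Dgat1 and Dgat2, which complete triglyceride synthesis, rose with log2 fold changes of 0.45 ± 0.06 and 0.66 ± 0.14.

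**Figure D2:**
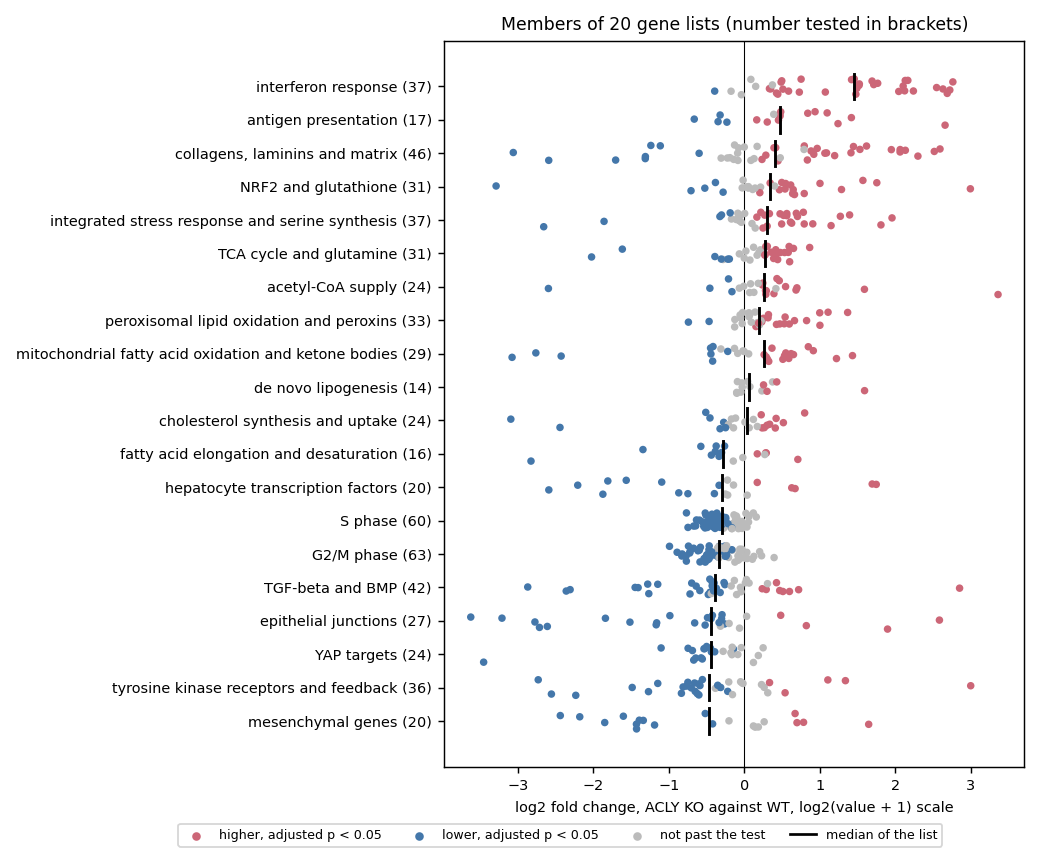
Log2 fold change of ACLY KO against WT (horizontal axis, log2(value + 1) scale) for the tested members of 20 gene lists, 1 point a gene, colored by the test, with a black line at each list's median. The interferon response list lies furthest to the right, with a median of 1.46, and the S phase and G2/M phase lists hold no member called higher.

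For glycolysis and gluconeogenesis, of 28 members tested, 6 were higher and 10 lower. The glucose transporter gene Slc2a1 fell from 6666 ± 322 to 4044 ± 87 normalized counts (-0.72 ± 0.05, adjusted p = 2.41e-06), and Hk2 and Pfkp, which encode hexokinase 2 and the platelet phosphofructokinase, fell with log2 fold changes of -0.52 ± 0.07 and -0.54 ± 0.06. Forms of 1 enzyme could differ: Pfkm, the muscle form of phosphofructokinase, rose from 1412 ± 62.7 to 2534 ± 62.1 normalized counts (0.84 ± 0.05). In the pentose phosphate and NADPH list, of 16 members tested, 3 were higher and 4 lower; without ACLY KO replicate 2, 2 were lower, and without WT replicate 2, 5 were higher. Rpia, ribose-5-phosphate isomerase, fell from 2953 ± 614 to 1219 ± 60.7 normalized counts (-1.26 ± 0.12).

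For the TCA cycle and glutamine use, of 31 members tested, 16 were higher and 6 lower, with a median of 0.27. Slc1a5, a glutamine importer, rose from 859.8 ± 32.9 to 1305 ± 11.8 normalized counts (0.60 ± 0.05). Cs, citrate synthase, did not pass (-0.06 ± 0.06, adjusted p = 0.388). Slc25a13, a carrier of the malate-aspartate shuttle, had 1764, 1984, 1962 and 1836 normalized counts in the WT libraries and 512, 434, 443 and 469 in the ACLY KO libraries (-2.02 ± 0.07, adjusted p = 3.53e-08), and Glul, glutamine synthetase, fell from 1412 ± 30.2 to 464 ± 60.6 normalized counts (-1.61 ± 0.09). For nuclear genes of the respiratory chain, of 50 members tested, 15 were higher (30%, beside 28.3% of all genes). Lower were 4 (8%, beside 28.8%), and the median was 0.21. The count of higher members depended on WT replicate 2, the library with the length trend: without it 36 were higher. Cyc1, cytochrome c1, rose from 3971 ± 178 to 6107 ± 324 normalized counts (0.62 ± 0.06). Genes encoded in mitochondria were not analysed here.

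The stress response that runs through ATF4 was higher in part. The transcription factor ATF4 is translated when eIF2α is phosphorylated and raises genes of amino acid synthesis and transport. For its targets and serine synthesis genes, of 37 members tested, 23 were higher and 5 lower, with a median of 0.30; 3 were lower without WT replicate 1, ACLY KO replicate 2 or ACLY KO replicate 3. Nupr1, a stress-induced chromatin factor, had 189.5, 212, 164 and 190.3 normalized counts in the WT libraries and 613, 666, 639 and 741 in the ACLY KO libraries (1.81 ± 0.09, adjusted p = 3.13e-07). Sesn2, a leucine sensor, rose from 287 ± 21.9 to 756 ± 46.7 normalized counts (1.40 ± 0.08), Atf5 from 1371 ± 184 to 3302 ± 247 normalized counts (1.27 ± 0.09) and Slc6a9, a glycine transporter, from 554 ± 38.9 to 1230.4 ± 58.2 normalized counts (1.15 ± 0.07). Asns, asparagine synthetase, rose by 0.71 and the cystine transporter gene Slc7a11 by 0.80 on the log2 scale. The enzymes of serine use split: Shmt1, the cytosolic serine hydroxymethyltransferase, fell from 152 ± 14.8 to 23.9 ± 6.66 normalized counts (-2.66 ± 0.20) while Shmt2, its mitochondrial form, rose from 5497 ± 233 to 8408 ± 386 normalized counts (0.61 ± 0.05). For the unfolded protein response and chaperones, of 32 members tested, 6 were higher and 10 lower; between 2 and 3 were higher without WT replicate 1 or any of ACLY KO replicates 1 to 3, and 10 without WT replicate 2. Herpud1, of endoplasmic reticulum degradation, rose (0.69 ± 0.05) and Pdia4, a disulfide isomerase, fell (-0.76 ± 0.05).

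The promoters of the stress genes held the composite element of ATF4 and C/EBP (TTGCATCA, with TGATGCAA as the same site on the other strand) in 7 of 31 members with a RefSeq promoter (22.6%), beside 74 of 9910 promoters of tested genes (0.747%). Of the 7, 6 were among the members called higher, beside 19 of the 31. The promoters of Nupr1, at chr7:126625421-126625720 (reverse strand), and Slc7a11, at chr3:50443564-50443863 (reverse strand), are printed from 250 bases before to 50 bases after the start in RefSeq's GRCm38.p6, 5′ to 3′, with the element in capitals, because both genes rose and both hold it.
Nupr1: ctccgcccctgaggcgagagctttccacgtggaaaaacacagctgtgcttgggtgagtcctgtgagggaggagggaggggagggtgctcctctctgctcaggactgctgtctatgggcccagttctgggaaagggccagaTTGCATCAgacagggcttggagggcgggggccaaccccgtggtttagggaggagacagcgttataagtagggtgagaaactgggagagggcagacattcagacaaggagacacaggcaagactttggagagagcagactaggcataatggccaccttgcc
Slc7a11: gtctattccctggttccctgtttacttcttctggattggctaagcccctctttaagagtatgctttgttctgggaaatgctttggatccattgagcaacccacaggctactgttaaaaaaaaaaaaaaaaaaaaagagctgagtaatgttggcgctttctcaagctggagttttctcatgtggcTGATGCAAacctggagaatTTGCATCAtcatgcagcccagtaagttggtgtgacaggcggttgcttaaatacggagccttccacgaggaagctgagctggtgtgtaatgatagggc
A match is a description of these letters and was not tested as a bound site.

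For genes of the antioxidant factor NRF2 and of glutathione, of 31 members tested, 16 were higher and 5 lower, with a median of 0.34. Ephx1, epoxide hydrolase, had 842, 902, 928 and 851 normalized counts in the WT libraries and 2609.8, 2691, 2600.2 and 2579 in the ACLY KO libraries (1.57 ± 0.05, adjusted p = 2.99e-08). Gclm, a subunit of the enzyme that starts glutathione synthesis, rose from 3472 ± 107 to 5418 ± 227 normalized counts (0.64 ± 0.05). Gsr, which regenerates glutathione, fell from 6780.2 ± 406 to 4159 ± 189.6 normalized counts (-0.70 ± 0.06), and so did Hmox1, heme oxygenase (-0.28 ± 0.07). The element TGACNNNGC was in 10 of 26 promoters of this list (38.5%) and in 17.1% of all 9910. Of these 10 genes 4 were called higher, beside 14 of the 26. Glutathione transferases of the Gstm and Gsta families are near-identical copies, so Gstm6 (1.76 ± 0.15) is uncertain. Among cytochrome P450 genes 11 of 53 passed the filter on low values, 4 higher and 5 lower; Cyp4b1 rose from 939.6 ± 107 to 2677 ± 134 normalized counts (1.52 ± 0.08) and Cyp2s1 fell from 320.4 ± 33.7 to 126 ± 2.32 normalized counts (-1.33 ± 0.09).

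Regulators of hepatocyte identity were lower more often than higher. For hepatocyte transcription factors, of 20 members tested, 5 were higher and 10 lower, and 5 of the 10 had a mean of at least 50. Hnf4a, a nuclear receptor that maintains the hepatocyte program, had 154, 152, 193 and 189 normalized counts in the WT libraries and 40, 29.2, 27.3 and 18.2 in the ACLY KO libraries (-2.59 ± 0.21, adjusted p = 5.95e-06). Foxa2, a pioneer factor of liver, had 1227, 1547, 1120.5 and 1249.8 normalized counts in the WT libraries and 384, 333, 329.7 and 349 in the ACLY KO libraries (-1.87 ± 0.10). Gata6 fell from 1229 ± 101 to 575 ± 19.8 normalized counts (-1.09 ± 0.07) and Cebpa from 53.5 ± 14.2 to 14.3 ± 2.01 normalized counts (-1.81 ± 0.21). The coactivators of mitochondrial and fasting genes went the opposite way: Ppargc1a had 217, 204, 215 and 202 normalized counts in the WT libraries and 774, 668, 740.4 and 652 in the ACLY KO libraries (1.75 ± 0.07, adjusted p = 8.81e-08) and Ppargc1b rose from 42.1 ± 7.24 to 138 ± 13 normalized counts (1.70 ± 0.14). Of 66 genes of plasma proteins, 17 passed the filter, with 10 higher and 3 lower, beside 28.3% and 28.8% of all genes. Of the 17, 5 had a mean of at least 100. A gene low in WT can pass the filter through ACLY KO alone, so nothing is read from the count of higher members. Serpinf1 rose from 9.73 ± 4.03 to 116 ± 15.1 normalized counts (3.54 ± 0.31) and Itih3 from 92.3 ± 10.1 to 262 ± 24.6 normalized counts (1.49 ± 0.10). Rbp4, the retinol carrier, fell from 73.3 ± 18.1 to 11 ± 2.84 normalized counts (-2.63 ± 0.23). For fetal and progenitor genes, of 21 members tested, 5 were higher and 13 lower: Krt7, a bile duct keratin, had 13125, 16203, 11962 and 12167 normalized counts in the WT libraries and 4134, 3859.7, 3874 and 4105 in the ACLY KO libraries (-1.73 ± 0.09), Aldh1a1 fell from 28061 ± 1284 to 15529 ± 389 normalized counts (-0.85 ± 0.05), and Afp, alpha-fetoprotein, rose from 37 ± 12.2 to 127 ± 9.17 normalized counts (1.82 ± 0.24).

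Of the 35 tested genes of enzymes that add, remove or read histone acetylation, 19 did not pass the test. In this list, of 35 members tested, 8 were higher and 8 lower, but 15 were lower without WT replicate 2. Sirt1, an NAD-dependent deacetylase, had 404, 369, 479 and 433 normalized counts in the WT libraries and 98.3, 97.2, 106 and 98.8 in the ACLY KO libraries (-2.06 ± 0.09, adjusted p = 1.15e-07). Hdac9 rose from 33.6 ± 7.92 to 134 ± 8.88 normalized counts (1.99 ± 0.16) and Hdac11 from 296 ± 24.9 to 585 ± 16.1 normalized counts (0.99 ± 0.07), and Kat2a, which encodes the acetyltransferase GCN5, rose by 0.35 on the log2 scale. Crebbp did not pass (-0.15 ± 0.18, adjusted p = 0.511). Naa40, an acetyltransferase for the ends of histones H2A and H4, fell (-0.76 ± 0.05) and lies on chromosome 19.

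Many genes of the cell cycle were lower, each by less than the limits of the study. For the S phase list, of 60 members tested, 0 were higher and 35 lower, with a median of -0.29, and for the G2/M list, of 63 members tested, 0 were higher and 38 lower, with a median of -0.33. By limma at an unadjusted p under 0.05, 0 and 2 were higher, and with robust variances 0 and 0. The background share of lower genes was 28.8%. Mcm5, part of the replicative helicase, had 10080, 10253, 9724 and 9929 normalized counts in the WT libraries and 6453, 6418, 6328 and 6415 in the ACLY KO libraries (-0.64 ± 0.04, adjusted p = 1.84e-06). Mcm2 fell from 9942 ± 613 to 6408 ± 146 normalized counts (-0.63 ± 0.06) and Rrm2, a subunit of ribonucleotide reductase, from 10769 ± 521 to 7142 ± 172 normalized counts (-0.59 ± 0.05). Pcna, the sliding clamp, did not pass (-0.10 ± 0.10, adjusted p = 0.397). In mitosis genes, Incenp, on chromosome 19, had 5722, 5187, 5567 and 5708 normalized counts in the WT libraries and 2999.5, 3104, 2862 and 3013 in the ACLY KO libraries (-0.89 ± 0.05) and the condensin gene Ncapd2 fell from 8431 ± 385 to 4942 ± 94.7 normalized counts (-0.77 ± 0.05). Mki67 was at 16193 ± 3904 to 11354 ± 1396 normalized counts with overlapping groups (-0.48 ± 0.18, adjusted p = 0.0397), a call that was lost without WT replicates 1, 3 or 4, each in turn. The E2F elements TTTCCCGC and TTTGGCGC were in 14 of 45 S phase promoters (31.1%) and 6 of 54 G2/M promoters (11.1%), beside 3.52% of all. Of the S phase promoters with an element, 7 of 14 belonged to genes called lower, beside 27 of all 45, and of the G2/M promoters 4 of 6, beside 32 of all 54.

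For the D-type cyclins, their kinases, CDK inhibitors and genes of the RB and MYC families, of 18 members tested, 1 were higher and 9 lower: Ccnd1 fell from 18726 ± 829 to 15182 ± 404 normalized counts (-0.30 ± 0.05), the kinase gene Cdk2 fell (-0.46 ± 0.05) and Mycl, of the MYC family, fell from 50.6 ± 7.38 to 9.02 ± 2.58 normalized counts (-2.39 ± 0.23). Targets of p53 were mixed, with 5 higher and 7 lower of 24 tested and 8 higher without WT replicate 2. Cdkn1a, the gene of p21, fell from 296 ± 28.5 to 226 ± 5.21 normalized counts (-0.38 ± 0.08), Rrm2b rose (1.03 ± 0.11) and Mdm2 did not pass (-0.05 ± 0.06, adjusted p = 0.5). Of 55 ribosomal protein genes, 0 were higher and 2 lower by limma (1 and 5 at an unadjusted p under 0.05, 0 and 2 with robust variances, 29 lower after the transcript length correction and 6 higher without WT replicate 2).

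Of the 45 lists, that of the interferon response had the highest median, beside -0.01 over all genes. Cells that sense foreign nucleic acid or receive interferon switch on these genes, and their products degrade viral RNA, block its translation and display peptides to T cells. In ACLY KO, of 37 members tested, 31 were higher and 1 lower, 16 of them past the limits of the study, beside background shares of 28.3% and 4.67%. The median log2 fold change was 1.46. A member low in WT can pass the filter through ACLY KO alone, which raises these counts and the median. With at least 10 normalized counts required in every library, 26 members were higher and 1 lower, and the median was 0.914.

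Cmpk2, a mitochondrial nucleotide kinase, had 55.8, 47.1, 47.7 and 52.1 normalized counts in the WT libraries and 295, 290.3, 331 and 289 in the ACLY KO libraries (2.55 ± 0.09, adjusted p = 3.94e-08). Oasl2, of the oligoadenylate synthetase family, had 69.2, 42.6, 50.3 and 59.5 normalized counts in the WT libraries and 318, 293, 535 and 279 in the ACLY KO libraries (2.63 ± 0.22, adjusted p = 6.60e-06). Gbp2, a guanylate-binding protein gene, had 65.6, 46, 54.7 and 56 normalized counts in the WT libraries and 214, 226, 256 and 230.4 in the ACLY KO libraries (2.05 ± 0.12) and the DNA sensor gene Ifi204 rose from 77.3 ± 7.09 to 354 ± 66.3 normalized counts (2.17 ± 0.13). ACLY KO replicate 3 held the highest Oasl2, and it was the darkest column of the heat map. Without it 30 members were higher and the median was 1.27.

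Irf7, a regulator of interferon genes, rose from 17.6 ± 7.41 to 59.6 ± 26 normalized counts (1.69 ± 0.33, adjusted p = 0.00165) and Ifit1, which binds foreign RNA caps, from 6.39 ± 3.26 to 24.7 ± 12.2 normalized counts (1.77 ± 0.40, adjusted p = 0.00411). Gbp3 held 17.8, 28.8, 25 and 20.6 normalized counts in the WT libraries and 106, 139.6, 272 and 146 in the ACLY KO libraries (2.72 ± 0.27), Oas3 rose from 25.4 ± 6.23 to 129.8 ± 61.3 normalized counts (2.24 ± 0.29) and Isg15, a ubiquitin-like modifier, from 60 ± 5.82 to 175 ± 48.1 normalized counts (1.49 ± 0.18). Ifit2 went the other way, from 2639.6 ± 206 to 2011 ± 111 normalized counts (-0.39 ± 0.07, adjusted p = 9.04e-04). Members of the Oas1 family are near-identical copies and their values are uncertain. Of the 37 tested members, 24 had a mean over 100. With a mean of at least 50 required, 24 were higher and the median was 0.754.

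**Figure D3:**
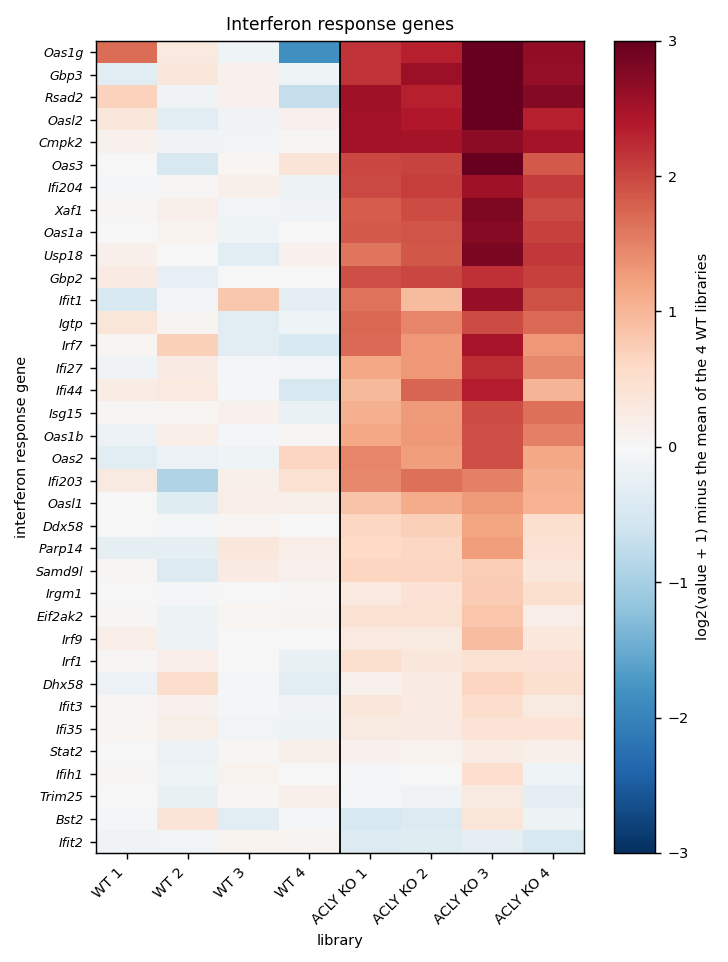
Log2(value + 1) of tested interferon response genes (1 row a gene) in each library minus the mean of the 4 WT libraries, from blue (lower) to red (higher), with WT on the left of the line and ACLY KO on the right. The upper rows are red in all 4 ACLY KO libraries and darkest in replicate 3.

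The letters GAAANNGAA, the core of the element through which interferon-regulated factors act, were in the promoters of 20 of 29 members with a RefSeq promoter (69%) and in 831 of 9910 promoters of tested genes (8.39%). Of the 20 genes 16 were called higher, beside 24 of the 29. In antigen presentation 4 of 14 promoters held it (28.6%). A gene with several RefSeq starts was counted if any of them had a match. The promoters of 4 members that rose are printed because they show repeats of this element before the start site. Gbp3 is at chr3:142559794-142560093 (forward strand), Oas3 at chr5:120777610-120777909 (reverse strand), Isg15 at chr4:156200769-156201068 (reverse strand) and Ifit1 at chr19:34640639-34640938 (forward strand) in GRCm38.p6 of RefSeq. Each runs 5′ to 3′ from 250 bases before to 50 bases after the start, with matches on either strand in capitals; overlapping matches run together.
Gbp3: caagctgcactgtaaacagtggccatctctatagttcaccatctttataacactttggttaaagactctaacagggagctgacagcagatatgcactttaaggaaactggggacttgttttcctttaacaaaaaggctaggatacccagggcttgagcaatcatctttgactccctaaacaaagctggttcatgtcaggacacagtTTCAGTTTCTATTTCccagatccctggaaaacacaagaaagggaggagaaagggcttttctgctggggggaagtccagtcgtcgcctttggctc
Oas3: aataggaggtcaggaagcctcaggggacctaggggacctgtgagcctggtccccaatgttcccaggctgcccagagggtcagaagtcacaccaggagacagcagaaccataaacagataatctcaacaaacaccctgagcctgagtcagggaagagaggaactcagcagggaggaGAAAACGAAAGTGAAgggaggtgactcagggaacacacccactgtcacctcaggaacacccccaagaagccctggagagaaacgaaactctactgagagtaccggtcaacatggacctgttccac
Isg15: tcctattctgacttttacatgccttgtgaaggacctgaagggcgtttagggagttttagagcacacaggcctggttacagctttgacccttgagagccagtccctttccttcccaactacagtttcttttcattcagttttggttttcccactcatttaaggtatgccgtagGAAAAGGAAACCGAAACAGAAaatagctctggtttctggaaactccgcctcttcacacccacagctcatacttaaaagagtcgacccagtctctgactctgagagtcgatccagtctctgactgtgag
Ifit1: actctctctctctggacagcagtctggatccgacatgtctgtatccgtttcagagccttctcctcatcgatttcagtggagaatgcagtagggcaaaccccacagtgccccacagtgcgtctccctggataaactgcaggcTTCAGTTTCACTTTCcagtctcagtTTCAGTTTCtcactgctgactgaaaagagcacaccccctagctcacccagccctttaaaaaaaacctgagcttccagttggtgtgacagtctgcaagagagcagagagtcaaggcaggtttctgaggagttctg
Gbp3 and Oas3 held 2 matches each, and Isg15 and Ifit1 held 3. A second RefSeq promoter of Gbp3, at chr3:142560106-142560405, held 0. The nearest to the start began 38 bases before it in Gbp3, 69 in Oas3, 66 in Isg15 and 84 in Ifit1.

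Antigen presentation rose in part. For these genes, of 17 members tested, 12 were higher and 4 lower (2 lower without ACLY KO replicate 1 or 2), with a median of 0.47. B2m, the light chain of MHC class I, rose from 9027 ± 374 to 12385 ± 969 normalized counts (0.45 ± 0.07), Tap2, a subunit of the peptide transporter, from 184 ± 34.1 to 489 ± 26 normalized counts (1.42 ± 0.13) and Psmb10, an immunoproteasome subunit, from 591 ± 121 to 1386 ± 149 normalized counts (1.24 ± 0.13). The class I heavy chain gene H2-K1 fell from 2892 ± 440 to 2303 ± 129 normalized counts (-0.32 ± 0.10, adjusted p = 0.0189), a call lost without ACLY KO replicate 1 or 2. Cd74, the invariant chain of MHC class II, had 18.7, 24.8, 16 and 15.5 normalized counts in the WT libraries and 124, 141, 111 and 114 in the ACLY KO libraries (2.66 ± 0.17). Class I genes have close copies and their values are uncertain. Cytokines and chemokines were mixed, with 8 higher and 7 lower of 20: Cxcl12 had 379, 439, 405 and 417 normalized counts in the WT libraries and 60.9, 56.4, 48.1 and 49.4 in the ACLY KO libraries (-2.92 ± 0.10), Il33 fell from 2214 ± 109 to 811 ± 37.9 normalized counts (-1.45 ± 0.06), and Lcn2, an iron-binding acute phase protein, rose from 49.2 ± 10.7 to 284 ± 15.5 normalized counts (2.52 ± 0.14).

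Matrix genes were higher more often than lower. For collagens, laminins and other matrix genes, of 46 members tested, 24 were higher and 8 lower (15 lower without WT replicate 2), with a median of 0.41. Col1a1, a chain of the main fibrillar collagen, had 458, 428, 374 and 454 normalized counts in the WT libraries and 2497, 2260.2, 2651 and 2409 in the ACLY KO libraries (2.52 ± 0.08, adjusted p = 2.66e-08). Col3a1 rose from 80.6 ± 7.08 to 401 ± 23 normalized counts (2.30 ± 0.09), Col5a1 from 1184 ± 53.3 to 3231 ± 128 normalized counts (1.45 ± 0.05) and Col6a1 from 439 ± 33.2 to 1932 ± 116 normalized counts (2.13 ± 0.07). Col4a1 and Col4a2, which form the basement membrane network, fell with log2 fold changes of -1.11 ± 0.10 and -1.24 ± 0.11, while Col4a4, Col4a5 and Col4a6 of the same type rose (0.45 ± 0.09, 0.39 ± 0.09 and 0.80 ± 0.12). Of 8 laminin genes tested, 3 were higher and 2 lower. Fibronectin, Fn1, did not pass (-0.14 ± 0.22, adjusted p = 0.622). The stellate cell and fibroblast markers summed to between 2177 and 2479 in WT and between 3541 and 3903 in ACLY KO. Of 6 tested, 4 were higher and 1 lower, and the defining marker Lrat was at 2.34 or less in every library. Col1a1 and Col3a1 are among these markers, so the sum is not independent of the matrix values above. Acta2, also among them, fell with a log2 fold change of -1.39. Endothelial markers summed to between 26.3 and 37.7 in WT and 125 and 147 in ACLY KO, with 3 of 3 tested higher. These 3, Pecam1, Cdh5 and Vwf, were at 11.9 or less in every WT library and passed the filter through ACLY KO. Kdr, Tek, Stab2 and Lyve1 were under the filter. Kdr went the other way, with 8, 11.5, 12.3 and 19.9 normalized counts in the WT libraries and 1.18, 0.943, 2.57 and 4.14 in the ACLY KO libraries. The part of such cells in the matrix result was not tested.

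For integrins, the receptors for matrix, of 17 members tested, 9 were higher and 5 lower, with between 2 and 3 lower without WT replicate 3 or 4 or ACLY KO replicate 2, 3 or 4. Itgb6, the epithelial partner of integrin αv, had 857, 789, 840.2 and 881 normalized counts in the WT libraries and 3306, 3076, 3394 and 3278 in the ACLY KO libraries (1.95 ± 0.06), Itgb2 rose from 112 ± 15.5 to 818 ± 28.5 normalized counts (2.86 ± 0.10) and Itga3, a laminin receptor, fell from 19864 ± 2456 to 13469 ± 710 normalized counts (-0.55 ± 0.09). For matrix proteases and inhibitors, of 25 members tested, 5 were higher and 13 lower (3 higher without ACLY KO replicate 3). Timp3 had 9449, 8210.3, 10547 and 10526 normalized counts in the WT libraries and 2490.4, 2339.7, 2407 and 2277 in the ACLY KO libraries (-2.02 ± 0.08), the membrane protease gene Mmp14 fell from 5622 ± 525 to 2338 ± 69.9 normalized counts (-1.26 ± 0.07) and Adam8 rose from 124 ± 9.35 to 676 ± 89 normalized counts (2.44 ± 0.10).

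Genes of cell contacts were lower more often than higher. For epithelial junctions, of 27 members tested, 4 were higher and 19 lower, 7 of them past the limits of the study, with a median of -0.44. Cdh1, which encodes E-cadherin, had 559, 550.2, 529 and 547 normalized counts in the WT libraries and 70.7, 54.7, 59.9 and 49.6 in the ACLY KO libraries (-3.21 ± 0.11, adjusted p = 3.13e-08). Gja1 was given above. Grhl2, a factor that maintains epithelial genes, rose from 5.32 ± 2.28 to 35 ± 3.54 normalized counts (2.59 ± 0.30).

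Mesenchymal and contractile genes were also lower more often than higher. For that list, of 20 members tested, 4 were higher and 11 lower, with a median of -0.47. Cnn1, calponin, had 1241, 1315, 1191 and 1289 normalized counts in the WT libraries and 296, 259.9, 274 and 281 in the ACLY KO libraries (-2.18 ± 0.06), Acta2, smooth muscle actin, fell from 1657 ± 133 to 630.4 ± 14.1 normalized counts (-1.39 ± 0.07), and Twist1, a factor of epithelial-mesenchymal transition, from 142 ± 8.18 to 25.6 ± 3.09 normalized counts (-2.44 ± 0.12). Vim did not pass (-0.20 ± 0.09, adjusted p = 0.0887). Cdh1, Cnn1, Acta2 and Twist1 fell in the same 4 libraries.

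For TGF-β and BMP genes, of 42 members tested, 8 were higher and 24 lower, with a median of -0.38: Inhba, the activin subunit, had 597, 697, 708 and 705 normalized counts in the WT libraries and 133, 134, 141 and 135 in the ACLY KO libraries (-2.31 ± 0.07) and lies on chromosome 13, Fstl1 fell from 2606 ± 125 to 507 ± 10.4 normalized counts (-2.36 ± 0.05) and Bmp4 from 508 ± 38.4 to 211 ± 20.9 normalized counts (-1.26 ± 0.09). Targets of YAP and TEAD, the factors that respond to cell contact and tension, were lower in 15 of 24 and higher in 0, with 0 higher by limma also at an unadjusted p under 0.05 and with robust variances. Ankrd1, on chromosome 19, had 18556, 22495, 17945 and 18088 normalized counts in the WT libraries and 8779.8, 8999.8, 8886 and 9126 in the ACLY KO libraries (-1.10 ± 0.08). Ctgf fell from 28648 ± 3751 to 17019 ± 562 normalized counts (-0.74 ± 0.09) and Cyr61 from 46835 ± 2335 to 34346 ± 454 normalized counts (-0.45 ± 0.06).

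For Wnt genes and targets, of 26 members tested, 6 were higher and 14 lower, with a median of -0.45. The ligand genes Wnt7a and Wnt7b fell with log2 fold changes of -1.45 ± 0.06 and -1.43 ± 0.06 and the receptor gene Fzd8 from 87.8 ± 7.57 to 14.7 ± 1.98 normalized counts (-2.50 ± 0.14). Axin2, a feedback inhibitor that rises with β-catenin activity, rose from 73.2 ± 10.8 to 211 ± 17.2 normalized counts (1.53 ± 0.12). For receptor tyrosine kinases and their feedback genes, of 36 members tested, 5 were higher and 22 lower, with a median of -0.47. Flt1, a VEGF receptor, had 1128, 1029, 1325 and 1339.7 normalized counts in the WT libraries and 232, 203, 188 and 192 in the ACLY KO libraries (-2.55 ± 0.10), Igf1r fell from 4527 ± 209 to 2789 ± 232 normalized counts (-0.70 ± 0.07) and Met, the receptor of hepatocyte growth factor, from 10027 ± 1750.2 to 6324 ± 466 normalized counts (-0.65 ± 0.12). Dusp6, a phosphatase induced by ERK, fell from 1328 ± 51 to 600.4 ± 28.1 normalized counts (-1.14 ± 0.06). Egfr did not pass (-0.02 ± 0.16, adjusted p = 0.94).

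In the hypoxia list, of 28 members tested, 6 were higher and 14 lower: Vegfa fell from 3619 ± 239.6 to 2331 ± 141 normalized counts (-0.63 ± 0.07) and Ndrg1 rose from 3138 ± 186 to 5838 ± 300 normalized counts (0.90 ± 0.06). For lysosomes and autophagy, of 44 members tested, 23 were higher and 7 lower, with a median of 0.20; Gabarapl1, which builds autophagosomes, had 2228, 1983, 2127 and 2175 normalized counts in the WT libraries and 4155, 3950, 3966 and 4097 in the ACLY KO libraries (0.93 ± 0.05) and the cathepsin gene Ctsb rose from 6517 ± 259 to 9689 ± 271 normalized counts (0.57 ± 0.05). The E-box CACGTG was in 11 of 32 lysosome and autophagy promoters (34.4%) and 6 of 28 glycolysis promoters (21.4%), beside 11.7% of all. The sterol element TCACNCCAC was in 1 of 16 cholesterol promoters, in 0 of 13 lipogenesis and in 0 of 13 desaturation promoters (1.34% of all), and the DR1 element AGGTCAAAG in 0 of 9 PPARα target, 0 of 24 peroxisomal and 0 of 23 mitochondrial oxidation promoters (0.404% of all). The HNF1 element GTTAATNAT was in 3 of 14 plasma protein and 0 of 15 hepatocyte factor promoters (0.515% of all). All were searched on both strands. Imprinted genes passed the filter in 15 of 29, with 4 higher and 3 lower (5 lower without WT replicate 2). Grb10, an imprinted inhibitor of insulin and IGF receptors, had 4152, 3914, 4448 and 4235 normalized counts in the WT libraries and 940.5, 751, 761 and 763 in the ACLY KO libraries (-2.38 ± 0.08, adjusted p = 3.17e-08). Of 39 Hox genes, 5 passed the filter and all 5 of these were lower, with Hoxb9 falling from 229 ± 11.1 to 68.7 ± 7.08 normalized counts (-1.73 ± 0.10); antisense genes overlap this cluster, and whether strand was used in counting is not given in the sources used here.

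Fold changes were not even over the genome. The median of tested genes was -0.425 on chromosome 13 (466 genes) and -0.374 on chromosome 19 (463 genes), while chromosome 15 had 0.238 (505 genes) and chromosome 11, which carries Acly, had 0.152. On chromosome 13, 56.7% of genes were called lower, and on chromosome 19, 60.5%. In windows of 50 neighboring genes the lowest median was -0.909, on chromosome 13 between 49608015 and 56472367, where 2% of genes had a positive log2 fold change. The highest was 0.589, on chromosome 3 between 110246104 and 127837523, where 88% were positive. On chromosome 11 the windows that span Acly had medians of -0.228 and -0.13. Oxct1 and Cyc1 lie on chromosome 15 and Scd1, Scd2, Fads1 and Fads3 on chromosome 19. Elovl6, Adh7, Gbp2 and Gbp3 lie on chromosome 3, where window medians ran from -0.334 to 0.589. The window from 127869688 to 142638008 there, which holds the Gbp3 start and ends with Gbp2, had 0.31 (82% positive). These are examples, and other genes named in the text also lie in windows with raised or lowered medians. The part of the chromosome medians in any gene's value was not tested. Without genes of chromosomes 13 and 19, an alternative chosen after seeing the data, 32 of 56 S phase genes and 33 of 57 G2/M genes were lower, and 29 of 34 interferon response genes were higher.

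**Figure D4:**
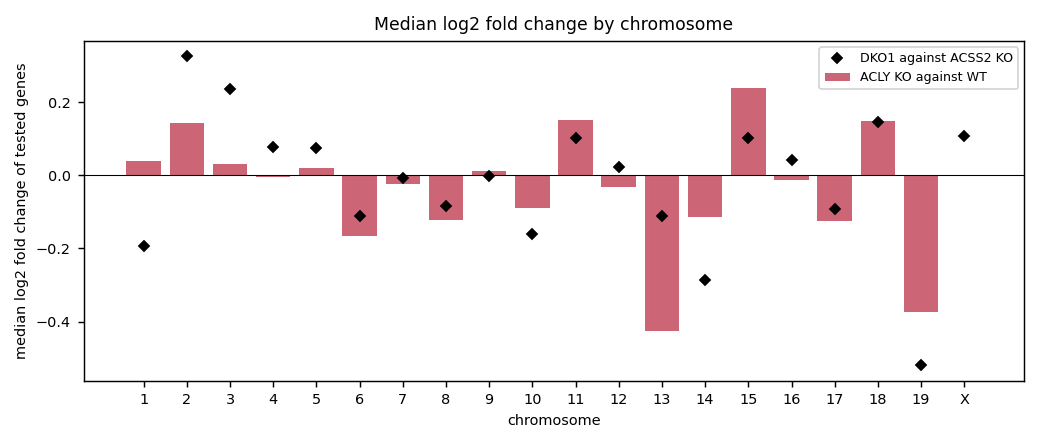
Median log2 fold change (vertical axis) of the tested genes of each autosome and of X (horizontal axis), as bars for ACLY KO against WT and diamonds for DKO1 against ACSS2 KO. Chromosomes 13 and 19 have the lowest bars, at -0.425 and -0.374, and the diamond of chromosome 13 lies at -0.112.

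The 4 tested genes of the Y chromosome were lower. Ddx3y had 1499.8, 1612, 1679.5 and 1740.3 normalized counts in the WT libraries and 445, 301, 354 and 323 in the ACLY KO libraries (-2.21 ± 0.11, adjusted p = 3.21e-07), and Eif2s3y, Kdm5d and Uty had log2 fold changes of -2.08 ± 0.13, -2.41 ± 0.15 and -1.99 ± 0.09. Their summed level was 3578 ± 162 in WT and 797 ± 118 in ACLY KO (SD, n = 4 each; exact two-sided permutation test, p = 0.0286, the smallest that 4 against 4 allows). The sum was between 683 and 713 in the 3 ACSS2 KO libraries and between 9175 and 10642 in the 3 DKO1 libraries. The methods describe DKO1 as made from ACLY KO cells, and the DKO1 libraries held more Y chromosome RNA than the libraries of ACLY KO and of WT. The cause was not tested.

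Loss of ACLY was also set beside the same loss in cells edited at Acss2, DKO1 against ACSS2 KO, a comparison that shares no library with the first. Per the methods, ACSS2 KO and DKO1 were each grown from a single cell, so genotype and clone cannot be told apart there either. The methods describe DKO1 as made from ACLY KO cells, in which case the clone is not independent; the Y chromosome sums above bear on that descent, and it was not tested. Acly fell there too, with a log2 fold change of -2.59 beside -2.59 and no difference past the test (interaction 0.01, adjusted p = 0.965). At the limits of the study 618 genes (4.91%) were higher and 722 (5.74%) lower in DKO1 than in ACSS2 KO. Of the 588 genes higher in ACLY KO, 334 (56.8%) were among the 618 (54% of those), and of the 521 lower ones, 376 (72.2%) were among the 722 (52.1% of those). Genes called in opposite directions numbered 7 and 10. The interaction term had an adjusted p under 0.05 in 27% of all tested genes, in 235 of the 588 (40%) and in 274 of the 521 (52.6%). The 588 and 521 were chosen on the ACLY KO difference, which enters the term with the opposite sign, so nothing is read from their higher shares.

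Side by side, the interferon response list had a median of 1.46 in ACLY KO against WT and 1.13 in DKO1 against ACSS2 KO, and the S phase list -0.29 and -0.51. The G2/M list had -0.33 and -0.30, and the YAP list -0.44 and -0.50. The stress response list had 0.30 and -0.38, the matrix list 0.41 and -0.19, and the cholesterol list 0.04 and 0.70; whether these medians differ was not tested. Among single genes, Cmpk2 had 2.55 and 1.80, and Cdh1 -3.21 and -1.53. Col1a1 had 2.52 and -0.13, Scd1 -2.82 and 0.04, and Ppargc1a 1.75 and -0.63.

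**Figure D5:**
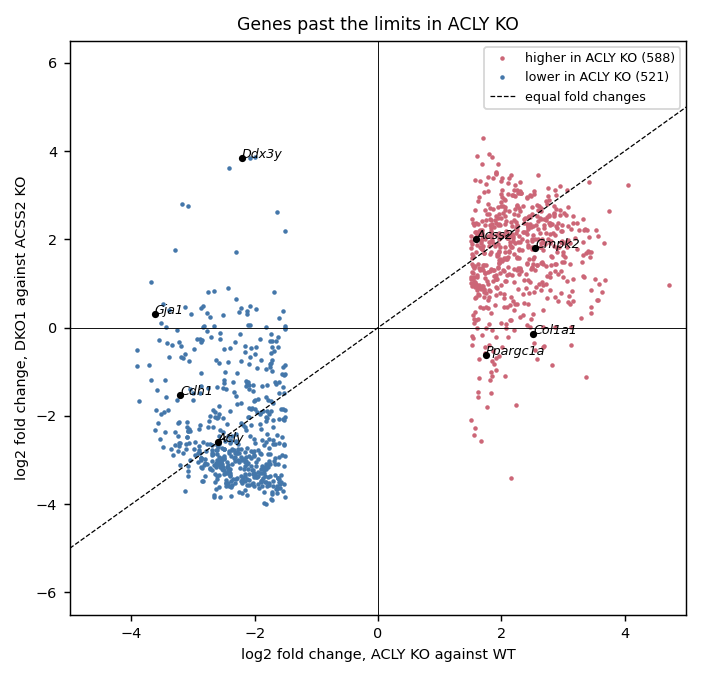
Log2 fold change in ACLY KO against WT (horizontal axis) and in DKO1 against ACSS2 KO (vertical axis) of the 588 genes higher and 521 lower past the limits in ACLY KO, 1 point a gene, with 8 genes named and a dashed line of equal values. Acly lies on the line, Gja1 and Col1a1 lie near 0 on the vertical axis, and the Y chromosome gene Ddx3y lies in the opposite direction.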

How the data were processed

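RNA was measured in 4 WT and 4 ACLY KO libraries, grouped by the labels. Per the methods, poly(A) libraries were read on a NextSeq and aligned with STAR to GRCm38 (mm10). The authors deposited 1 table of normalized counts per gene, a signal scaled by DESeq (DESeq2 1.0.1 in the submitters' processing notes). The counter is not given in the sources used here. The values are not whole reads, so sequencing depth is unknown and no count test was run. Date-like symbols (26 of them) were not repaired.

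Genes with a mean of at least 10 over the 8 libraries were tested on log2(value + 1) with limma 3.58.1 (R 4.3.3, trend, two-sided, Benjamini-Hochberg adjustment over all tested genes). The added constant makes fold changes of low genes too small. Calls used an adjusted p under 0.05 or the limits of the study. DKO1 and ACSS2 KO were fitted over all 14 libraries, with an interaction term. The steps were tested on simulated data. The 45 lists and the members were chosen with earlier results of these data known.

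Named genes were Acly, Acss2, genes the study names, the 12 largest rises and falls with a mean of at least 100 (no clone names, no overlap of groups), and in each list the first 3 written and the 4 with the smallest adjusted p, besides cell markers. Col4a1, Col4a2, Col4a4, Col4a5, Col4a6, Cyba, Gbp3, Grhl2, Ifit2, Isg15, Oas3, Scd4, Shmt1, Shmt2 and Slc7a11 were named after their values were seen, as were the chromosome windows of 50 genes. Alternatives varied the constant, filter, libraries, replicate block, scaling, length correction, variance moderation and limits. Some genes that the rule allows are not reported here.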

Additional observations from a re-analysis of the deposited data

Results flagged for a closer look

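In 7 of 52 group values examined (26 genes, 2 groups each), 1 library of 4 lay far from the other 3 by Dixon's ratio at the 95% level, and chance flags about 1 group in 20. Acly in ACLY KO was highest in replicate 1, at 1084.4 normalized counts, and Epha7 in ACLY KO stood apart in replicate 4, at 5213.1. In WT it was replicate 2 each time, with Mal at 269.68, Igfbp3 at 311.77, Malrd1 at 29.79 and Nrcam at 11.468. Mal also stood apart in ACLY KO replicate 2, at 34.759.

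For 19 of the 26 genes, the interaction term of limma over 14 libraries had an adjusted p under 0.05. The term is DKO1 minus ACSS2 KO, less ACLY KO minus WT, on the log2 scale. Per the methods, ACSS2 KO and DKO1 were each grown from a single cell, so the Acss2 edit and clone cannot be told apart in it. Acss2 itself differed by 0.407 (adjusted p = 0.0377). Among the large falls in ACLY KO, the term was above 0 for Gja1 (3.929), Itpripl2 (3.267), Atp6v0e2 (3.046), Nes (2.162), Mal (1.57), Tnfrsf23 (1.554), Slc16a3 (1.413), Igfbp3 (1.088), Upk1b (0.9384) and Sox11 (0.7806). Among the large rises it was below 0 for Malrd1 (-2.405), Epha7 (-1.859), Nrcam (-1.692), Csn3 (-1.678), Rhox5 (-1.536), Adh7 (-1.388), Cacna1i (-1.197) and Zfp979 (-0.6213). Of all tested genes 27% passed this test. These genes were chosen for large values in ACLY KO against WT, which enter the term with the opposite sign, so the count is not read as particular to them.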

How the results depend on the processing

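Acly and Acss2 kept their direction and call under every alternative run, with log2 fold changes without 1 replicate of -2.641 to -2.563 and 1.547 to 1.632. Taking 0.15 of the 14-library mean from each value, an alternative chosen after seeing the data, gave -3.511 for Acly. The counts past the limits, 588 higher and 521 lower, moved with the filter: 894 higher with no filter, 316 and 315 with at least 10 in every library, and 293 and 300 with a mean of at least 50. They moved with the limits too, to 1023 and 790 at log2 1 with an adjusted p of 0.05 and to 356 higher at log2 2 with 0.01. Of the 710 calls shared with DKO1 against ACSS2 KO, a mean of at least 50 left 401. Without 1 replicate the counts were 549 to 631 higher and 505 to 548 lower past the limits, 3136 to 4228 and 3216 to 4317 at an adjusted p under 0.05, and 693 to 711 shared. Quantile normalization reversed Lamp1 (0.19), Rpl4 (0.14) and Hspa5 (0.15). Medians near 0 changed sign in 8 lists: under equal totals or quantile normalization for glycolysis, pentose phosphate, P450, cytokine, ribosomal and unfolded protein genes, and without WT replicate 2 for cholesterol and p53 genes. With the replicate block, 580 and 519 genes passed the limits and 3221 and 3254 the adjusted p. Libraries of the same number did not deviate together (correlations 0.0865, -0.0626, 0.225 and -0.268), so the numbers were not taken as pairs. The cause of these changes was not tested, beyond the fewer genes tested under stricter filters. Without counts, the depth limit on weak genes is unknown.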
